A study of Homo sapiens with 8 samples.

Results

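The 8 transcription factor genes *OTX1*, *RAX*, *RAX2*, *SIX3*, *SIX6*, *PRDM1*, *LHX4* and *MEF2D*, which act in the eye field or the retina, were followed through the H3K27Ac landscapes of 4 medulloblastoma (MB) cell lines. They are 8 of the 20007 protein-coding genes of GENCODE 44 and were chosen by name, with earlier results of these data known. An enhancer was given to a gene when it overlapped the gene body or lay within 50 kb of its start site in GRCh38. H3K27Ac, an acetylated histone mark of active enhancers and promoters, was mapped by ChIP-seq in MB002, D425 and HD-MB03, lines of group 3 subtype MB (G3-MB), and in UW228, which the labels place in the SHH subtype and the study used as a non-G3 control. MB002 and HD-MB03 grew in Tumor Stem Media, whereas D425 and UW228 grew in DMEM with FBS, so that UW228 shared its medium with D425 alone. No treatment is named in the labels. Each line was profiled once, as 1 H3K27Ac library beside 1 input library. With no replicates, differences between lines have no replicate error to be set against, and no test was made.

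In the early embryo a sheet of anterior neural tissue, the eye field, is set apart by homeodomain factors such as RAX, SIX3, SIX6, LHX2 and PAX6, which keep each other switched on. Later, OTX2, CRX and NRL drive the photoreceptor programme in the retina, and factors such as PRDM1 and MEF2D act with or below them. G3-MB is a cerebellar tumor known for carrying parts of this photoreceptor programme. Super-enhancers (SEs) are clusters of enhancers with very high H3K27Ac, and the remaining enhancers are called typical enhancers (TEs).

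The authors stitched neighbouring H3K27Ac peaks into enhancers with ROSE, which ranks them by signal and calls those above a signal cutoff as SEs. The signal of an enhancer is given here as the H3K27Ac value minus the input value, with a floor of 0, as read density scaled to library size (rpm/bp) times length in bp. It therefore grows with length, and the mean signal per bp is given beside it. The lines held 15286 to 26317 enhancers and 302 to 753 SEs, with cutoffs from 22917 in HD-MB03 to 32353 in MB002. The depth of the libraries is unknown. In such bulk material, fewer cells with the mark and less of the mark in each cell cannot be told apart. Of 6 G3-MB marker genes, 3 were SE-associated in MB002 and D425, 2 in HD-MB03 and 0 in UW228. The share of all protein-coding genes was 3.35% for MB002, 4.34% for D425, 3.11% for HD-MB03 and 4.99% for UW228. Of the 6, *NPR3* went the other way, with an enhancer in UW228 alone (signal 25870). The best rank of *MYC* in UW228 was 763, just beyond the 753 SEs called there. Of 7 SHH marker genes, 0 were SE-associated in UW228, although 6 had an enhancer there. In HD-MB03, 3 were SE-associated (*GLI1*, *PTCH1* and *PDLIM3*). With 4.99% of all genes SE-associated in UW228, a count of 0 of 7 cannot decide on its SHH label. Of 6 mesenchymal markers, 1 was SE-associated in UW228 (*COL1A2*) and 1 in HD-MB03 (*COL5A1*).

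Most of the signal of the 8 genes lay at 2 of them. In all, 31 enhancers were found in 21 of the 32 pairs of gene and line, with 11 from MB002, 8 from D425 and 6 each from HD-MB03 and UW228. Of these, 5 were SEs and 26 were TEs, and 13 consisted of a single peak. The start site of the gene lay inside 9 of them, 16 overlapped the gene body and 14 overlapped an exon of the gene. For 26 the closest start site was that of the gene itself, whereas 5 were closer to another gene (*C14orf39*, *QSOX1* or *IQGAP3*). *SIX3* and *MEF2D* together held most of the signal of the 8 genes, 72.1% for MB002, 88.0% for D425, 98.7% for HD-MB03 and 80.9% for UW228.

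At least 1 enhancer was found for 7 of the 8 genes in MB002 and in D425, for 3 in HD-MB03 and for 4 in UW228. Over all protein-coding genes the share was 70.8% for MB002, 72.9% for D425, 58.2% for HD-MB03 and 61.8% for UW228. SE-associated were 2 of the 8 in MB002 (*SIX3* and *MEF2D*), 1 in D425 (*SIX3*), 1 in HD-MB03 (*MEF2D*) and 1 in UW228 (*MEF2D*). The share of all genes was 3.35% for MB002, 4.34% for D425, 3.11% for HD-MB03 and 4.99% for UW228. Both *SIX3* and *MEF2D* were SE-associated in at least 2 of the 3 G3-MB lines, as were 1.96% of all genes. Ranked by mean signal per bp instead, with a recomputed cutoff, *SIX3* was SE-associated in no line and *MEF2D* in MB002 alone of the G3-MB lines. All 5 SEs covered the start site of their gene, so none of the calls is left when enhancers that touch 2.5 kb either side of the own start, the flank that the study's methods exclude, are left out.

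The plot of signal by gene and line shows the same split.

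**Figure D1:**
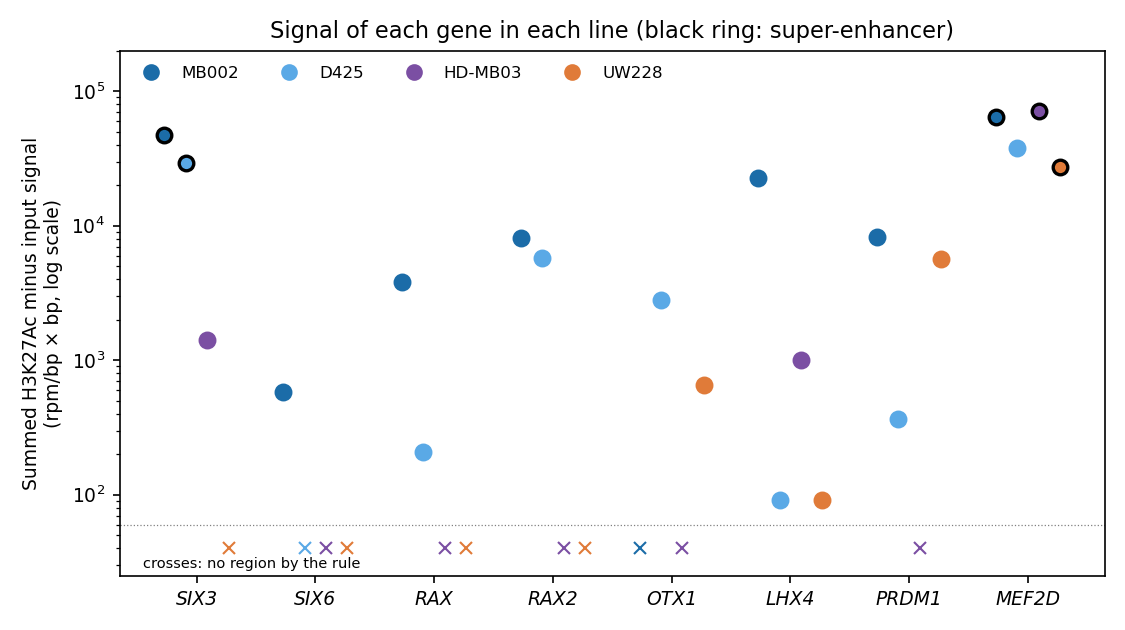
Summed H3K27Ac minus input signal of each gene (rpm/bp times bp, log axis) in the 4 lines, with crosses below the dotted line where the gene had no enhancer and black rings where it was SE-associated. *MEF2D* lay at 27267 or higher in all 4 lines, *SIX3* at 29506 or higher in MB002 and D425 only, and the other 6 genes at 22624 or lower.

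Stretches of sequence that carry these comparisons are shown first, from GRCh38 and read 5′ to 3′ on the plus strand, each the middle of an interval that the named lines share. The *SIX3* stretch is shown because all 3 G3-MB lines had an enhancer there. It lay upstream of *SIX3* and overlapped exons of the noncoding RNA gene *LINC01833*. The *MEF2D* stretch belongs to the distal enhancer found in all 4 lines and lay outside annotated genes. The *LHX4* stretch (an intron of *QSOX1*) and the *PRDM1* stretch (an intron of *PRDM1* and of the overlapping *ATG5*) were shared by MB002 and D425. Capitals mark matches, on either strand, to TAATCC (bound by OTX and CRX proteins), TAATTA (bound by many homeodomains, RAX and LHX among them), TGATAC (bound by SIX3 and its relatives) or TATTTTTA (MEF2 type).
*SIX3* upstream, chr2:44935263-44935562: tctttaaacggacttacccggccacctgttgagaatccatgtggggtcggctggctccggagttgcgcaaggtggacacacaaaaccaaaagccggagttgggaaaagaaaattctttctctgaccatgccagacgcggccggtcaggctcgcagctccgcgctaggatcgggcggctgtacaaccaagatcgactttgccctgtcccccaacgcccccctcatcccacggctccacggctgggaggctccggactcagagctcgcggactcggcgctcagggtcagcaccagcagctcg
*MEF2D* distal, chr1:156457192-156457491: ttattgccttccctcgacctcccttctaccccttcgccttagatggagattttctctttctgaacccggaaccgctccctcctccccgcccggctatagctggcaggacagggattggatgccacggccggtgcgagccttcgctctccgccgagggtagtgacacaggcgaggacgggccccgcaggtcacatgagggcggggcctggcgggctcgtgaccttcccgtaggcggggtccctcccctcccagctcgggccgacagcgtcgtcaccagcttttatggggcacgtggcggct
*LHX4* upstream, chr1:180188892-180189191: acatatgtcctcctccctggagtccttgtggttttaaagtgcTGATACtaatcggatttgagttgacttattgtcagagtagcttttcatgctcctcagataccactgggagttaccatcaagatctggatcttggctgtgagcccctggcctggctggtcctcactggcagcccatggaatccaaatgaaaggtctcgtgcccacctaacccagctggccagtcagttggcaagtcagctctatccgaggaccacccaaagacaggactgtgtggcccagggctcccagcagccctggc
*PRDM1* intron, chr6:106080791-106081072: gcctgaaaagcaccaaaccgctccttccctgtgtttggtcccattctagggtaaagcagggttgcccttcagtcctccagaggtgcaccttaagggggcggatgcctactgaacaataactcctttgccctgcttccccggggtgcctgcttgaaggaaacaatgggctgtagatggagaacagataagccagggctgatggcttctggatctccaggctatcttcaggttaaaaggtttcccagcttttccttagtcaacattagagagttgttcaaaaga

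In these 4 stretches TGATAC occurred 1 time, at *LHX4*, and the other motifs did not occur. A stretch of 234 bp shared by MB002 and D425 at *RAX*, over an exon of *CPLX4* and not printed, held TAATTA 1 time, and 7.21% of MB002 enhancers held it in their central 234 bp. The central 300 bp of the 22433 MB002 enhancers of at least that length held TAATCC in 23.8%, TAATTA in 9.55%, TGATAC in 8.11% and TATTTTTA in 9.63%. TAATCC and TAATTA share the letters TAAT. A match is a string of letters, and no binding was measured.

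*SIX3*, a homeodomain factor of the eye field and the forebrain, lies on the plus strand of chromosome 2 (44941702 to 44946071). Its signal was 47425 for MB002, 29506 for D425 and 1405 for HD-MB03, and no enhancer was found in UW228. These sums cover 39348 bp, 17383 bp and 1795 bp of enhancers, and the mean signal was 1.21, 1.70 and 0.783 rpm/bp, in the same order of lines. MB002 and D425 thus stood above HD-MB03 in length, in mean and in sum. In MB002 this was 1 SE of 39348 bp, stitched from 11 peaks, at rank 172 of 26072. In D425 it was 1 SE of 17383 bp with 5 peaks, at rank 350 of 26317 and 1.13 times the cutoff. The D425 SE lay wholly inside the MB002 SE, of which it covered 44.2%. Its mean signal was the higher of the pair, so that the larger sum of MB002 went with the greater length. Ordered by mean signal per bp, the MB002 SE stood at rank 2323 and the D425 SE at rank 894.

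HD-MB03 had 2 single-peak TEs at *SIX3*, both within the MB002 SE. The first, of 1471 bp, lay 5805 bp upstream of the start, with a signal of 1144 and rank 6597 of 15286. The other, of 324 bp, lay 10281 bp downstream, with a signal of 260 and rank 11512. Neither reached the gene itself, so the start of *SIX3* was inside an enhancer in MB002 and D425 but not in HD-MB03. The nearest enhancer in UW228 lay 178.4 kb away, with a signal of 0 after subtraction of the input. The input density of the *SIX3* enhancers relative to the median enhancer of the line was 1.23 for MB002, 1.78 for D425 and 0.861 for HD-MB03. With each enhancer divided by its own value, the summed signal was 38548 for MB002, 16570 for D425 and 1686 for HD-MB03, in the same order. The D425 SE then stood at rank 842 in place of 350, under a recomputed cutoff that called 989 SEs in place of 431. The start of *SIX2*, a homeodomain gene of the same family, lay near enough for the MB002 SE of *SIX3* to be given to both.

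*MEF2D*, a MADS-box factor that acts with CRX at photoreceptor genes, lies on the minus strand of chromosome 1 (156463727 to 156500779). It had the highest signal of the 8 genes in every line. Its signal was 71708 in HD-MB03, 64657 in MB002, 37750 in D425 and 27267 in UW228. The 3 G3-MB lines had 1.38 to 2.63 times the signal of UW228, and 3.26 to 5.26 times when each line was divided by its median enhancer signal, which was highest in UW228. An interval of 12961 bp over the start site was inside an enhancer in every line.

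The rank of the *MEF2D* enhancer over the start varied more than its position. It was 21 of 15286 in HD-MB03, 110 of 26072 in MB002, 467 of 26317 in D425 and 719 of 20875 in UW228. D425 and UW228 had nearly the same signal there, 25207 and 25265, but received opposite calls. In D425 the enhancer was a TE at 0.962 of the cutoff, and in UW228 it was a SE at 1.03 times a lower cutoff. Both thus lay just beside the line between TE and SE. Without subtraction of the input the UW228 call was lost. After division by relative input density the D425 enhancer became a SE although its rank went from 467 to 804, since the recomputed cutoff called 989 SEs in place of 431.

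The highest rank of *MEF2D*, in HD-MB03, went with length. There the SE spanned 56077 bp with 9 peaks that filled 40.2% of it, reached into *IQGAP3* and had a mean of 1.18 rpm/bp. In MB002 it spanned 18539 bp with 2 peaks that filled 93.8%, at 3.12 rpm/bp. The means of D425 (1.93 rpm/bp over 13053 bp) and UW228 (1.56 rpm/bp over 16236 bp) also exceeded that of HD-MB03. By mean signal per bp the 4 enhancers stood at rank 170 for MB002, 653 for D425, 1114 for UW228 and 1725 for HD-MB03, which put the line of the largest sum last.

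**Figure D2:**
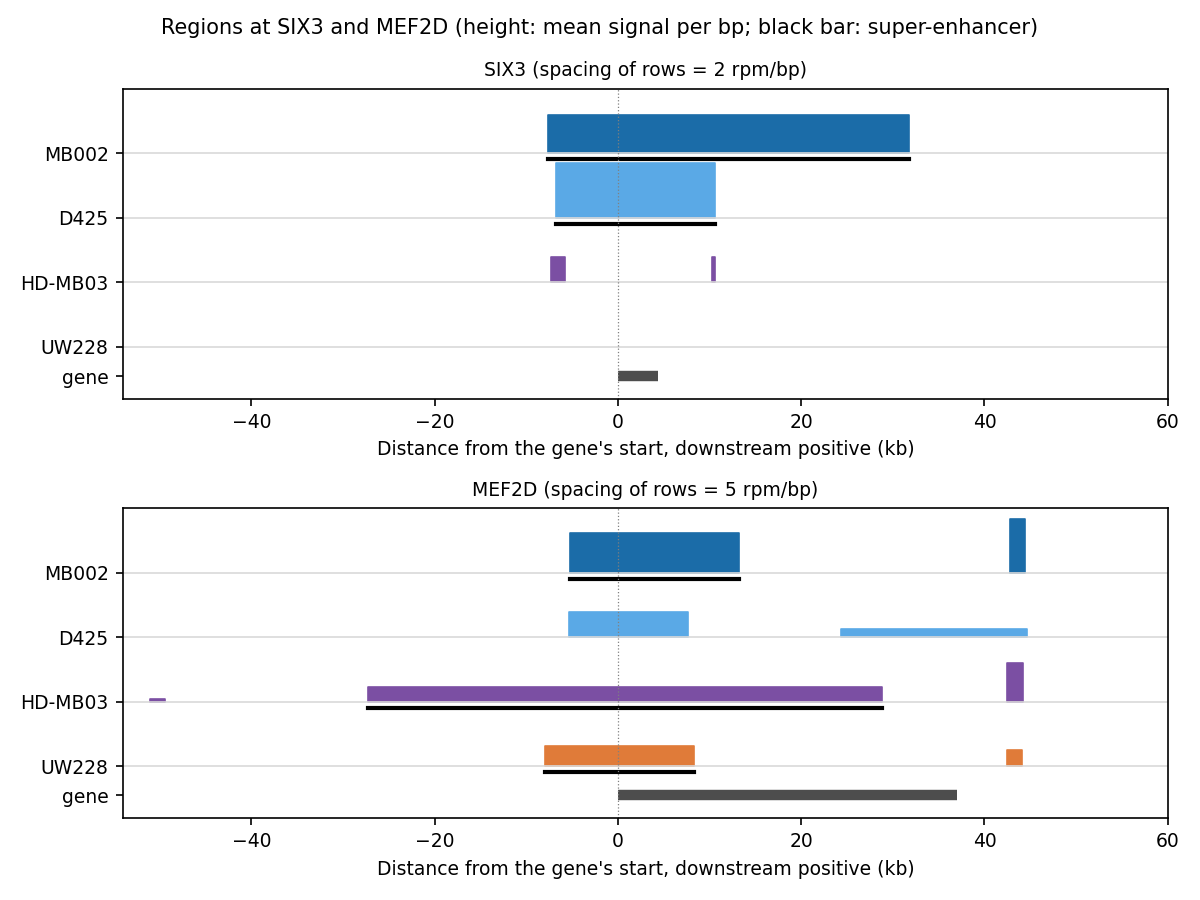
Enhancers of *SIX3* and *MEF2D* by distance from the start of the gene (kb, downstream positive), 1 row for each line, with the height of a block giving its mean signal per bp, black bars marking SEs and grey bars the gene. The D425 SE at *SIX3* lies inside that of MB002, and the *MEF2D* start and a short distal enhancer near 42.5 kb are covered in all 4 lines.

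A second, distal *MEF2D* enhancer lay past the 3′ end of the gene. It was a single peak of 1642 bp in MB002, 1804 bp in HD-MB03 and 1568 bp in UW228, 42.4 to 42.8 kb downstream of the start. Its signal was 6860 for MB002, 5374 for HD-MB03 and 2002 for UW228. In D425 the same place was part of a TE of 20300 bp and 4 peaks with a signal of 12543. Although a TE, the MB002 peak had a mean of 4.18 rpm/bp, the highest of all 31 enhancers, and rank 64 by this measure. The HD-MB03 peak, at 2.98 rpm/bp, stood at rank 315 by this measure.

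The input at *MEF2D* differed between the lines. Its relative input density was 1.64 for MB002, 1.14 for D425, 1.61 for HD-MB03 and 0.598 for UW228. Over all enhancers within 1 Mb the median was 1.58 for MB002, 0.920 for D425, 1.38 for HD-MB03 and 0.995 for UW228, so MB002 and HD-MB03 were raised over the wider neighbourhood as well. Divided by relative input density, the *MEF2D* signal was 39353 for MB002, 30690 for D425, 45277 for HD-MB03 and 45555 for UW228. The order between the G3-MB lines and UW228 turned round, and HD-MB03 and UW228 differed by little.

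The RefSeq start of *MEF2D* lay downstream of the GENCODE start, at 156490687. The SEs of MB002 and HD-MB03 covered both starts, whereas the enhancers of D425 and UW228 ended 2413 bp and 1799 bp short of the RefSeq start. The 250 bp before that start are shown because only part of the lines had an enhancer over them. They held 3 CpG dinucleotides and were 60% G or C.
*MEF2D* promoter, minus strand, chr1:156490688-156490937: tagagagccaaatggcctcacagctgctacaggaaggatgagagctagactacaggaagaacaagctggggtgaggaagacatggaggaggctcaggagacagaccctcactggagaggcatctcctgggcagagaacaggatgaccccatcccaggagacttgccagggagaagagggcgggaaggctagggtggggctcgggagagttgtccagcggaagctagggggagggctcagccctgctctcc

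*LHX4*, a LIM homeodomain factor of retinal bipolar cells, photoreceptors and the pituitary, lies on the plus strand of chromosome 1 (180230264 to 180278984). Its signal was 22624 for MB002, 999 for HD-MB03, 91.2 for D425 and 91.1 for UW228. MB002 had the largest sum, over 63981 bp of enhancers against 568 bp, 386 bp and 332 bp, in the same order of lines. The mean signal was 0.354 rpm/bp for MB002, 1.76 for HD-MB03, 0.236 for D425 and 0.274 for UW228, so that HD-MB03 was highest by this measure. Most of it came from 1 TE of 56930 bp with 14 peaks, from 14.7 kb downstream of the start to beyond the end of the gene and into *ACBD6*. It stood at rank 961, the highest of any TE of the 8 genes in MB002, and at 0.557 of the cutoff. The peaks filled 15.6% of it, its mean was 0.316 rpm/bp, and its rank by mean signal was 21039.

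The other lines each had 1 short peak at *LHX4*, at 3 different places. The HD-MB03 peak of 568 bp lay 41.1 kb downstream inside the MB002 enhancer. The D425 peak of 386 bp lay 41.0 kb upstream inside *QSOX1* and inside a further MB002 TE. The UW228 peak of 332 bp lay 16.3 kb upstream and overlapped no enhancer of the other lines. The D425 and UW228 peaks ranked 24147 of 26317 and 20620 of 20875, close to the bottom. Stronger TEs lay outside the window, 60.1 kb away in D425 (signal 3101, rank 5684) and 77.8 kb away in UW228 (signal 3037, rank 7629). The nearest outside it in MB002 and HD-MB03 lay at 62.3 kb (signal 1042) and 61.8 kb (signal 79.4). The relative input density was 1.64 in MB002 and 2.84 in HD-MB03, the highest of all 31 enhancers, beside 2.13 in D425 and 0.788 in UW228. With each enhancer divided by its own value, the summed *LHX4* signal was 13874 for MB002, 351 for HD-MB03, 116 for UW228 and 42.8 for D425. MB002 still stood highest, at rank 1840 in place of 961, but D425 moved below UW228.

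*RAX*, a homeodomain factor needed to form the eye field, lies on the minus strand of chromosome 18 (59267035 to 59274086). Its signal was 3830 in MB002 and 206 in D425, and no enhancer was found in HD-MB03 and UW228. The MB002 TE ran over 28624 bp upstream of the start, beginning 1120 bp from it, and overlapped *CPLX4*. It was stitched from 6 peaks that filled 12.9% of it, with a mean of 0.134 rpm/bp and rank 5342. The D425 TE was 1 peak of 234 bp, 1589 bp upstream, with a mean of 0.881 rpm/bp and rank 19442. The D425 peak lay wholly inside the MB002 TE, and the higher sum of MB002 went with a lower mean. Neither covered the start of *RAX*.

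*RAX2*, a related homeodomain factor of photoreceptors, lies on the minus strand of chromosome 19 (3769089 to 3772228). Its signal was 8085 in MB002 and 5762 in D425, and no enhancer was found in HD-MB03 and UW228. Both enhancers were TEs that covered the whole gene, with lengths of 8376 bp and 7642 bp, and reached *MRPL54*. The D425 enhancer lay wholly inside that of MB002, of which it covered 91.2%. They ranked 2781 in MB002 and 3389 in D425, and their means were 0.965 and 0.754 rpm/bp. The signals differed by 1.40 times over nearly the same interval. Divided by the relative input density of 0.853 in MB002 and 1.62 in D425, the signals were 9474 and 3562. The nearest enhancer lay 73.7 kb away in HD-MB03 (signal 259) and 116.4 kb away in UW228. A further TE of HD-MB03, 77.3 kb away, had a signal of 19517 and rank 438. MB002 and D425 also had TEs beyond the window, at 77.5 kb (signal 3699) and 77.4 kb (signal 3752).

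*SIX6*, a homeodomain factor of the developing retina and hypothalamus, lies on the plus strand of chromosome 14 (60509146 to 60512850). It had enhancers in MB002 alone, with a signal of 582 and a mean of 0.698 rpm/bp over 835 bp, the lowest signal of the 7 genes with an enhancer in that line. They were 2 single-peak TEs of 523 bp and 312 bp, 5345 bp and 25.7 kb downstream, at ranks 16711 and 23801. For both, the closest start site was that of *C14orf39*. The nearest enhancers of the other lines lay 56.3 kb away in UW228 (signal 123), 147.6 kb away in D425 and 149.5 kb away in HD-MB03.

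*OTX1*, a homeodomain factor of the forebrain and sensory organs, lies on the plus strand of chromosome 2 (63050057 to 63057836). It had a TE in D425 and a TE in UW228, with signals of 2787 and 651, and no enhancer in MB002 and HD-MB03. The mean was 0.295 rpm/bp for D425 and 0.355 for UW228, the opposite order. The D425 TE, of 9459 bp and 6 peaks, lay 28.1 kb downstream at rank 6174. The UW228 TE lay 49.5 kb upstream inside *EHBP1*, at the edge of the 50 kb window, at rank 14586. They had no base in common, and neither reached the gene itself. In MB002 the nearest enhancer lay 204.6 kb away, which made *OTX1* the only gene of the 8 without an enhancer in that line.

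*PRDM1*, a zinc finger repressor that favours photoreceptor over bipolar fate in the retina and drives plasma cell formation in blood, lies on the plus strand of chromosome 6 (105993463 to 106109939). Its signal was 8203 for MB002, 5678 for UW228 and 367 for D425, and no enhancer was found in HD-MB03. These sums cover 57034 bp of enhancers in MB002, 4196 bp in UW228 and 366 bp in D425. The mean signal was 0.144 rpm/bp for MB002, 1.35 for UW228 and 1.00 for D425, so that UW228 had the highest mean and MB002 the lowest. MB002 had a TE of 3158 bp over the GENCODE start and a TE of 53876 bp with 10 peaks inside the gene. The latter had the lowest mean of the 31 enhancers, 0.0961 rpm/bp, at rank 4205 by signal and 25199 by mean signal. UW228 had a TE of 1188 bp just past the GENCODE start and a single peak of 3008 bp at 1.53 rpm/bp, rank 5808.

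At the GENCODE start, MB002 and UW228 shared 1005 bp of enhancer. RefSeq places its start at 106086336, inside the GENCODE gene. The UW228 peak lay 804 bp downstream of this start, whereas the long MB002 TE ended 5264 bp before it and the D425 peak lay 5180 bp before it. The D425 peak, of 366 bp, shared 282 bp with the MB002 TE and none with UW228. The peak beside the RefSeq start was thus found in UW228 and in none of the G3-MB lines. With the RefSeq start as the centre of the window, an alternative chosen after the data were seen, *PRDM1* had less signal in all 3 G3-MB lines than in UW228.

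**Figure D3:**
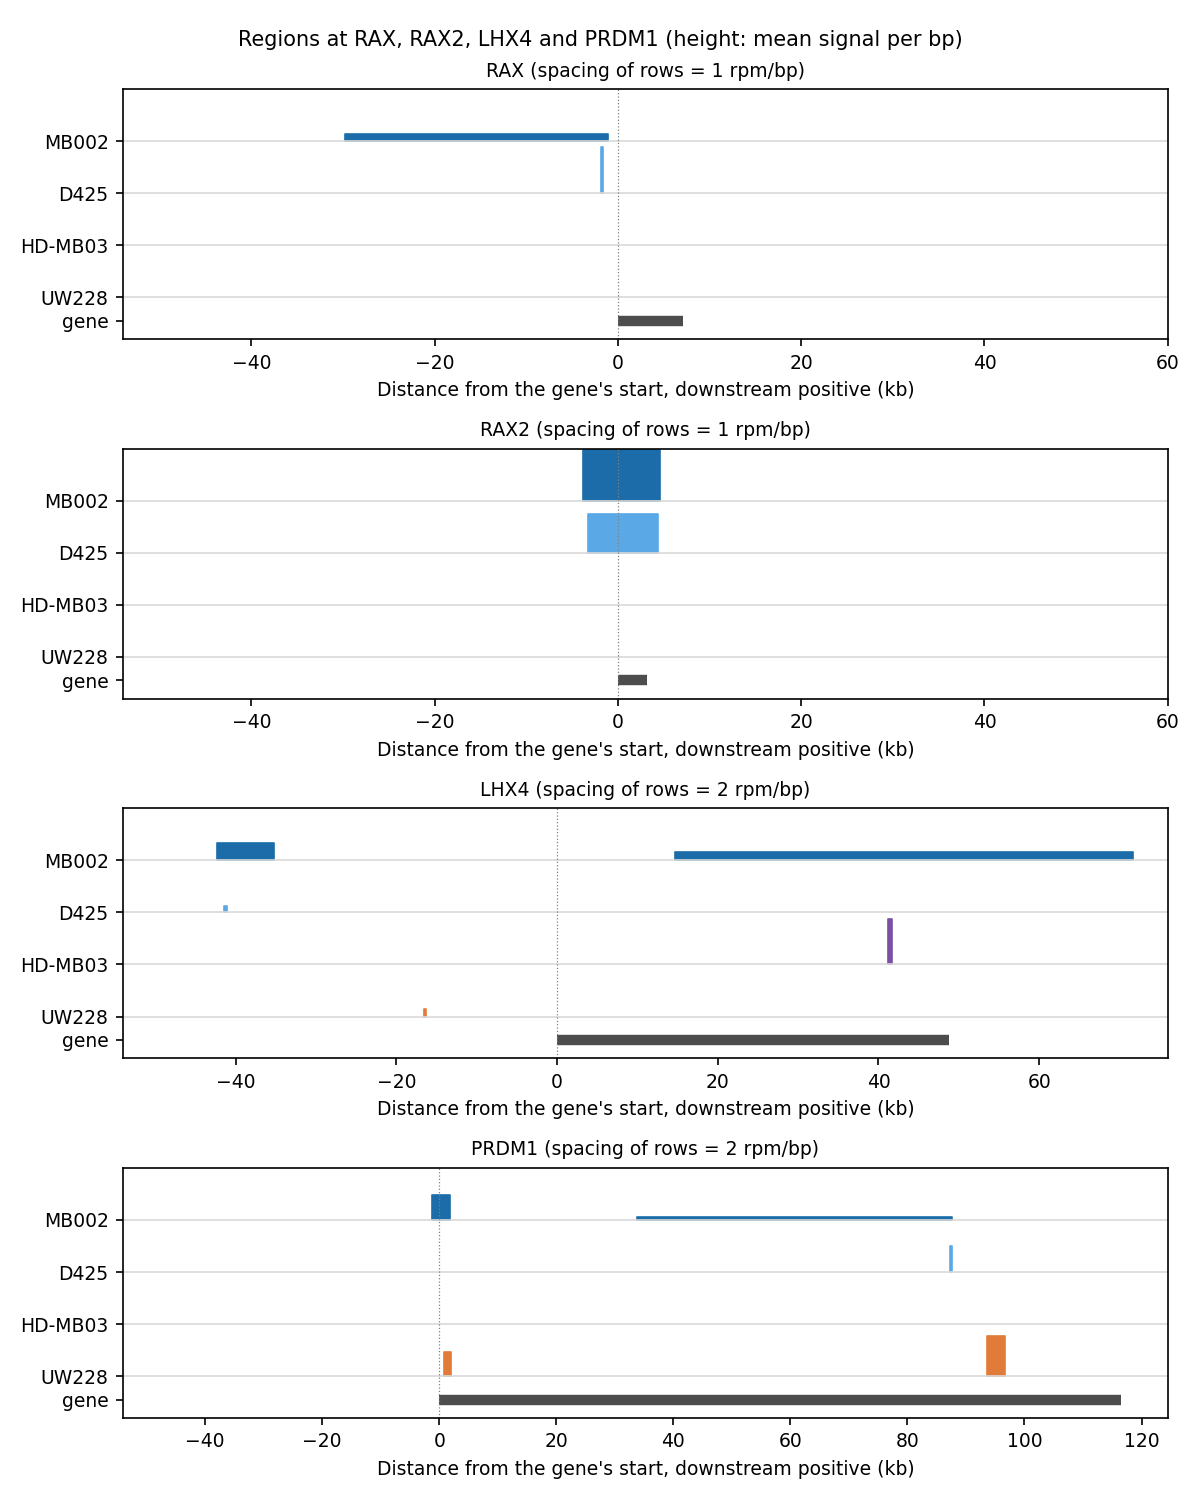
Enhancers of *RAX*, *RAX2*, *LHX4* and *PRDM1* by distance from the start of the gene (kb, downstream positive), with the height of a block giving its mean signal per bp and grey bars the gene. *RAX* and *RAX2* have blocks in MB002 and D425 only, and the long MB002 blocks at *RAX*, *LHX4* and *PRDM1* are low.

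The G3-MB lines were then set against UW228. The summed signal was higher in all 3 G3-MB lines than in UW228 for 3 of the 8 genes (*SIX3*, *LHX4* and *MEF2D*), beside 24.7% of the 17766 genes with an enhancer in at least 1 line. It was lower in all 3 for 0 of the 8, beside 28.9% of those genes. For *LHX4* the order rests on D425 and UW228 values of 91.2 and 91.1, a near tie, which became a ratio of 2.36 when each line was divided by its median enhancer signal. The genes with the higher order were *SIX3* and *MEF2D* with start sites within 25 kb, *MEF2D* with gene bodies only, and *LHX4* and *MEF2D* with the own promoter left out. After division by relative input density *SIX3* was higher and *MEF2D* lower in all 3 G3-MB lines. By mean signal per bp *SIX3* was higher, and *OTX1* and *PRDM1* were lower. With every transcript start *PRDM1* was lower.

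The highest signal was that of MB002 for 6 of the 8 genes, beside 28.6% of the 17766 genes with an enhancer in at least 1 line. By mean signal per bp, compared after the data were seen, MB002 was highest for 3 of the 8 (*RAX2*, *SIX6* and *MEF2D*), beside 26.7% of those genes. Enhancers in MB002 or D425 and in neither HD-MB03 nor UW228 were found for 3 of the 8 (*RAX*, *RAX2* and *SIX6*), beside 13.2% of those genes. *LHX4* and *MEF2D* were the 2 with an enhancer in all 4 lines, beside 40.5%. MB002 and D425 had the most enhancers in all, and the part of this in these counts was not tested. Of the 8, the 7 with an enhancer in MB002 had a median signal of 8203, against 3727 over all genes with an enhancer. The medians were 2787 against 3570 in D425 (7 of the 8), 1405 against 3282 in HD-MB03 (3) and 3165 against 4497 in UW228 (4). The median thus lay above that of all genes in MB002 alone, but each line had a different set of the 8. The relative input density of the 31 enhancers ranged from 0.518 to 2.84, and its part in these differences was not tested.

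**Figure D4:**
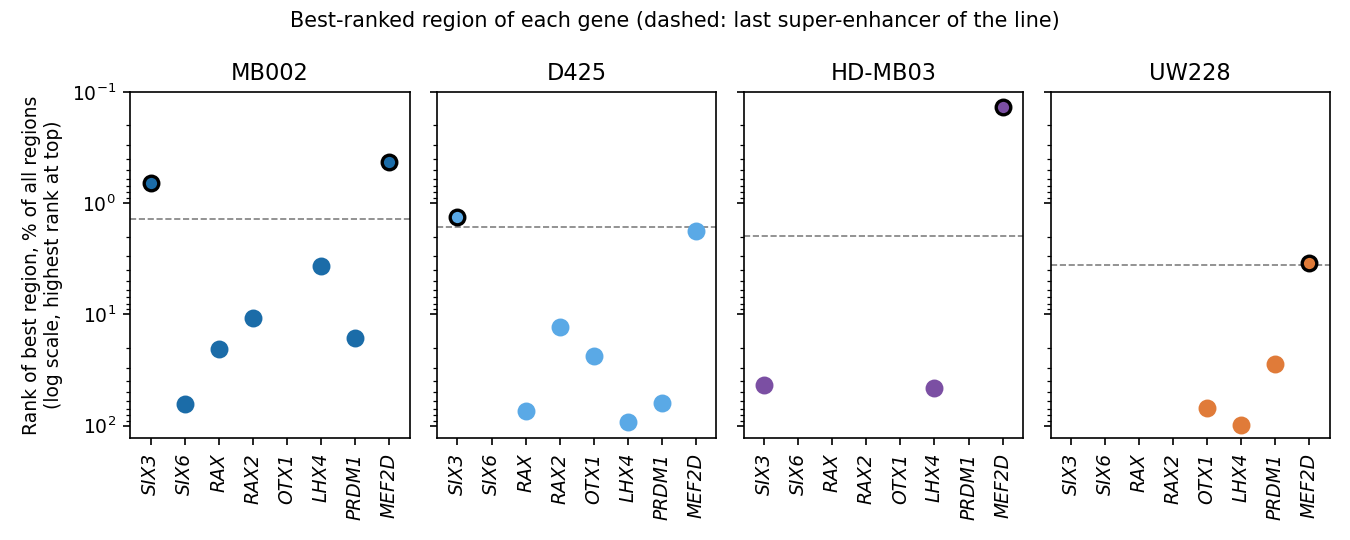
Rank of the best enhancer of each gene as a percentage of all enhancers of the line (log axis, strongest at the top), with the dashed line at the last SE and black rings marking SEs. *SIX3* and *MEF2D* lie at the top in MB002 and D425, *MEF2D* alone in HD-MB03 and UW228, and *MEF2D* sits just beside the dashed line in D425 and UW228.

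Length and mean signal placed the 31 enhancers differently. The SEs were between 16236 and 56077 bp long, with means of 1.18 to 3.12 rpm/bp. The long MB002 TEs of *LHX4*, *PRDM1* and *RAX* reached 28624 to 56930 bp but had means of 0.0961 to 0.316 rpm/bp. For comparison, the median enhancer of MB002 was 1585 bp long with a mean of 0.533 rpm/bp.

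**Figure D5:**
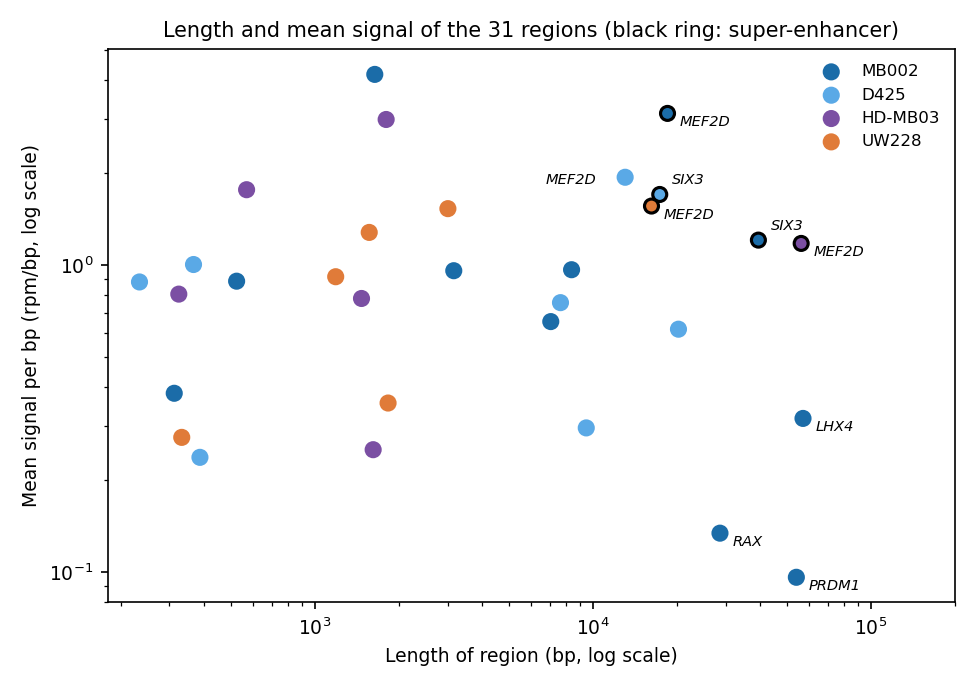
Length (bp, log axis) and mean signal per bp (rpm/bp, log axis) of the 31 enhancers, colored by line, with black rings marking SEs. The SEs of *SIX3* and *MEF2D* combine length with means above 1, the *LHX4*, *RAX* and *PRDM1* TEs of MB002 are long with low means, and a short *MEF2D* peak of MB002 is at the top.

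RefSeq promoters, the sequence around the annotated start (GRCh38.p14), were at hand for 6 of the 8 genes, all but *RAX2* and *SIX3*. In the 250 bp before the start, *OTX1* and *LHX4* were each 75.2% G or C, *RAX* 66.4%, *SIX6* and *MEF2D* 60% and *PRDM1* 53.6%. *OTX1* held 33 CpG dinucleotides, *LHX4* 30, *SIX6* 16, *RAX* 15, *PRDM1* 11 and *MEF2D* 3. *OTX1*, *LHX4*, *RAX* and *SIX6* had no enhancer over the start in any line. None of the 6 promoters, taken from 250 bp before to 50 bp after the start, held any of the 4 motifs on either strand. Of all 27305 promoters, 6.39% held TAATCC, 4.98% held TAATTA, 4.48% held TGATAC and 2.26% held the MEF2 type. This says only that these letters are not in these windows.

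Among 50 other transcription factors of the eye field and the retina, D425 had enhancers at 42, MB002 at 38, HD-MB03 at 27 and UW228 at 20. The shares over all protein-coding genes were 72.9%, 70.8%, 58.2% and 61.8%, in the same order of lines. MB002 had SEs at 5 of the 50, D425 at 4, HD-MB03 at 2 and UW228 at 0, beside 3.35%, 4.34%, 3.11% and 4.99% of all genes. Of the 5 in MB002, *SIX2* was counted through the SE of *SIX3*. The photoreceptor factors *OTX2*, *CRX* and *NEUROD1* were SE-associated in at least 2 lines. In the order MB002, D425 and HD-MB03, the best rank of *OTX2* was 3, 3 and 5, *CRX* ranked 84, 89 and 1425, and *NEUROD1* ranked 253, 502 and 48. None of these 3 genes had an enhancer in UW228, as was the case for *SIX3*. Of 5 photoreceptor marker genes, *GNAT1* was SE-associated in the 3 G3-MB lines.

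The genes most like each of these factors were sought by the distance between log2(signal + 100) over the 4 lines, among genes on other chromosomes with an enhancer in at least 2 lines. For *SIX3* they were *ASIC2*, *TIMP3* and *PTCRA* at distances of 1.03, 1.04 and 1.13. *ASIC2* had signals of 58537 for MB002, 43095 for D425, 2549 for HD-MB03 and none for UW228. For *MEF2D*, *MLLT10* and *ERN1* were the closest, at distances of 0.578 and 0.616. *MLLT10* had signals of 45513 for MB002, 39326 for D425, 66033 for HD-MB03 and 32352 for UW228.

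The same measure was taken for the other genes with enhancers in at least 2 lines. *FST*, *FFAR1* and *FFAR3* were most like *OTX1*, *NOL11*, *CACNG1* and *FAM205A* most like *RAX*, and *SLC7A2*, *IFT57* and *CAPN13* most like *RAX2*. *PRDM8*, *PRCP* and *CIAO2A* were most like *PRDM1*, and *TTC9*, *IQSEC3* and *TMEM200A* most like *LHX4*. The closest distance was 0.0809 for *OTX1*, 0.0947 for *RAX*, 0.0894 for *RAX2*, 0.230 for *PRDM1* and 1.35 for *LHX4*. *FFAR1* and *FFAR3* had identical signals in all 4 lines and so are 1 match rather than 2.

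At the edge of the window, the enhancers just inside were those of *OTX1* in UW228 at 49471 bp (signal 651) and *MEF2D* in HD-MB03 at 49440 bp (signal 405). Just outside were a *RAX2* enhancer in D425 at 53595 bp (signal 114), the *SIX6* enhancer in UW228 at 56333 bp, and *SIX3* enhancers in D425 at 58488 bp (signal 3425) and MB002 at 59033 bp (signal 5818). All of these were TEs.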

How the data were processed

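The authors aligned reads to GRCh38 with Bowtie2 2.3.0, used SAMtools 1.9, called peaks over input with MACS2 2.2.6, and stitched and ranked them with ROSE. The methods exclude promoter flanks, but some deposited enhancers cover a start site. The deposited signal of H3K27Ac and of input is read density scaled to library size (rpm/bp) times length. The deposited score is the rank, with a SE call beside it. The UW228 values came from a separate ROSE run. Depth is unknown.

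Values were computed with Python 3.11.15, numpy 2.4.6 and pandas 2.3.3, and plots were drawn with matplotlib 3.10.9. Gene bodies and starts (the 5′ end of the gene) came from GENCODE 44, and promoters from RefSeq. Ranks and SE calls are the deposited ones. Relative input density is input per bp over the median of all enhancers of the line. For signals divided by it, each enhancer was divided by its own value before the sum over a gene was taken. With 1 library per line, no test was made. The assignment was tested on simulated data. The named genes were the 8 factors, genes their enhancers touched or were closest to, the 3 most alike genes of each as far as reported here, and other retinal factors with SEs in at least 2 lines. The subtype, mesenchymal and photoreceptor markers named, and *SIX2*, fall outside this rule and were chosen after their values were seen. Members, lists and alternatives were chosen with earlier results of these data known. Some items of the series are not reported here.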

Additional observations from a re-analysis of the deposited data

How the results depend on the processing

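Each line had 1 H3K27Ac and 1 input library, so no replicate could be left out. No paired analysis was possible because the results come from no test and each group holds 1 sample. Of 103 recomputed counts of genes, 84 stayed within 1.5 times the reported count and 19 did not. With enhancers at the own promoter left out, 4 genes had an enhancer in MB002 and 4 in D425, and 0 were SE-associated in MB002, D425, HD-MB03 and UW228. With gene bodies only, 4 had an enhancer in D425 and 2 in UW228, and 1 (*MEF2D*) had more signal in all 3 G3-MB lines than in UW228. Within 100 kb, 5 had an enhancer in HD-MB03. Without input subtraction, 0 were SE-associated in UW228. After division by relative input density, 2 were SE-associated in D425, 1 (*SIX3*) had more signal than UW228 and 1 (*MEF2D*) less. By mean signal per bp, MB002 was highest for 3 genes (chosen after seeing the data), 1 (*SIX3*) had more and 2 (*OTX1* and *PRDM1*) less. Ranks by it, with a recomputed cutoff, left *MEF2D* SE-associated in MB002, *PRDM1* and *MEF2D* in UW228, and 0 of the 8 in D425 and HD-MB03. That cutoff called 1701 SEs in UW228 in place of 753, and *PRDM1* and *MEF2D* stood at ranks 1216 and 1114 there. With every transcript start, or with the RefSeq start (chosen after seeing the data), 1 (*PRDM1*) had less. The genes with more signal than UW228 were *SIX3* and *MEF2D* within 25 kb, *SIX3* and *LHX4* by the best enhancer alone, *LHX4* and *MEF2D* with the own promoter left out, and *RAX2*, *SIX3* and *MEF2D* within 100 kb, so each of the 3 reported genes was lost under some setting. Except where fewer or more enhancers were counted by construction, the cause was not tested. Of 102 recomputed best ranks, 28 moved by more than 1.5 times.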
